A study of Mus musculus with 98 samples.

Results

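Stimulated neurons were compared with resting neurons on day 21 in vitro, in 6 of the 98 libraries of the series. The 3 stimulated and 3 resting libraries were chosen by their titles: day 21, an empty virus vector, and PBS. All were primary mouse hippocampal neurons grown in Neurobasal medium with B27. On day 5 they received the vector, which is the PhP.eB form of adeno-associated virus without the Acss2 insert, and on day 7 they were washed and given PBS where other groups received tau material. No library of either group thus received viral Acss2 or the added tau material. The labels give the resting neurons as embryonic and of CD1 strain and give neither detail for the stimulated ones. They do not say what stimulus was applied or for how long. The wider study raises ACSS2, which turns acetate into acetyl-CoA, in neurons and in mice. The groups stand in separate tables (stimulated and unstimulated neurons, each with 25239 gene rows), so stimulation and table cannot be told apart. The labels do not say that the 3 libraries of a group came from separate cultures, so a p-value measures the spread between libraries, which may be technical.

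When a neuron is excited, calcium enters through NMDA receptors and voltage-gated channels and starts kinase cascades that reach the nucleus. There CREB, SRF and MEF2, factors already bound to DNA, switch on immediate early genes without new protein synthesis. Many of these genes encode transcription factors of the Fos, Jun, Egr and Nr4a families or Npas4, which act on later genes such as Bdnf. Others act at the synapse, as Arc and Homer1 do, or damp the kinases that started the response, as the Dusp and Spry families do.

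The promoters of 4 of the 5 transcription factor genes with the largest rises are shown, since their changes lead the results that follow. The fifth, Egr2, has 5 annotated starts and is not printed. Each run is the 250 bases before the RefSeq start on GRCm38.p6, on the strand of the gene, and capitals mark the core of the CREB binding site (CRE), TGACG or its reverse complement CGTCA. The windows are chr7:19310046-19310295 for Fosb, chr4:55532476-55532725 for Klf4, chr19:4989972-4990221 for Npas4 and chr2:57124004-57124253 for Nr4a2, all on the minus strand.
Fosb: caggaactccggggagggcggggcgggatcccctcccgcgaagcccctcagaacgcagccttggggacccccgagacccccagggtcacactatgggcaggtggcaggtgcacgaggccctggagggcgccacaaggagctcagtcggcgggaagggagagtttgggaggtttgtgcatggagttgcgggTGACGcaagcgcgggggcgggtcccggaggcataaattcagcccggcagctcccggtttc
Klf4: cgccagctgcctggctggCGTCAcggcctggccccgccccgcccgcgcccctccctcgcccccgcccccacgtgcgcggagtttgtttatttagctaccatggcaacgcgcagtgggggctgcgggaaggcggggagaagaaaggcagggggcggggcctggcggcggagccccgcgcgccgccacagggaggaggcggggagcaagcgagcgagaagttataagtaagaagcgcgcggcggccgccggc
Npas4: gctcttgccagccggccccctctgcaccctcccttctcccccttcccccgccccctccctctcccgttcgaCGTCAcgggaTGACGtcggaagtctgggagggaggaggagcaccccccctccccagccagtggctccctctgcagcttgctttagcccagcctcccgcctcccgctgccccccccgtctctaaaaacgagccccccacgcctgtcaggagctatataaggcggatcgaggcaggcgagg
Nr4a2: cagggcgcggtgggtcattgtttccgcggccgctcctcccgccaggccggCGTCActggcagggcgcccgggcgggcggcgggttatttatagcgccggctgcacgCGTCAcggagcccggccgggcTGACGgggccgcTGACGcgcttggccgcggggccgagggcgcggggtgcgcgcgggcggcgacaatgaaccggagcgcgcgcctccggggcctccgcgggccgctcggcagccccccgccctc
Fosb and Klf4 hold 1 CRE core each, Npas4 holds 2 and Nr4a2 holds 4. Searched on both strands, the CRE core was in 17.8% of all 32851 promoters in the table. A gene counts here if any of its listed promoters holds the motif, so genes with several starts have more chances. On that basis the CRE core was found for 13 of the 16 activity transcription factors with a promoter in the table, and for 29.4% of the 11901 tested genes with one. The full CRE palindrome (TGACG followed directly by TCA, so it contains the core) was found for 1 of the 16 and for 2.97% of tested genes. The AP-1 site (TGANTCA) and the CArG box bound by SRF were each found for 1 of the 16, against 5.41% and 1.36% of tested genes. The MEF2 box was found for 2 of the 16, against 0.521% of tested genes.

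Total counts ran from 19322013 to 31199403 in the resting and from 21686265 to 39985460 in the stimulated libraries. Acss2 (chromosome 2, 155517948 to 155585724) did not differ between the groups, at 51.3 ± 6.71 CPM resting and 54.5 ± 6.32 CPM stimulated (SD, n = 3 each; log2 fold change 0.09, edgeR adjusted p = 0.843). Here CPM is the counts-per-million level, with the library size scaled by TMM. Resting replicate 2 carried 10.98% of its counts on Rn45s, the ribosomal RNA precursor, against 0.436% to 1.13% in the other 5 libraries. Resting replicate 3 stood apart by its astrocyte genes, with Gfap at 14070 CPM against 4906 and 2222 in the other resting libraries. Across all 24 virus-treated day 21 libraries the first principal component (26.7% of the variance) was negative in all 12 resting and positive in all 12 stimulated libraries.

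Stimulated neurons differed from resting ones in 1079 of 15108 genes tested (7.14%; edgeR quasi-likelihood test, Benjamini-Hochberg adjusted p under 0.05). Of these, 702 genes were higher (4.65%) and 377 lower (2.50%). The tested genes as a whole had a median log2 fold change of -0.03, and 90% of them lay between -0.61 and 0.60. The called rises had a median of 0.65 and the called falls a median of -0.53. A test for change beyond 2-fold (edgeR glmTreat) passed 87 genes that rose (0.576%) and 0 that fell (0%). At an unadjusted p under 0.05 that test gave 30 lower genes, and DESeq2 gave 0 lower genes beyond 2-fold and 1 unadjusted. With all 36 neuron libraries, with the replicate number as a block, without resting replicate 3 or without stimulated replicate 2, 1 lower gene passed it. By the estimated size alone, 203 called genes were higher and 42 lower by at least 2-fold, up to 157-fold higher in Fosb and 6.13-fold lower in Hes5.

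The size of the call set depended on single libraries. It was 2836 genes without resting replicate 1, 512 without resting replicate 2, 535 without stimulated replicate 1 and 460 without stimulated replicate 3. The share of calls that were rises was 65.1%, and it was 34.1% with upper quartile scaling and 46.9% with total counts. The set beyond 2-fold was steadier, at 78 to 91 genes when each of the 6 libraries was left out in turn. All 3 stimulated libraries lay above all 3 resting ones in 1814 genes (12%) and below in 1555 genes (10.3%).

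**Figure D1:**
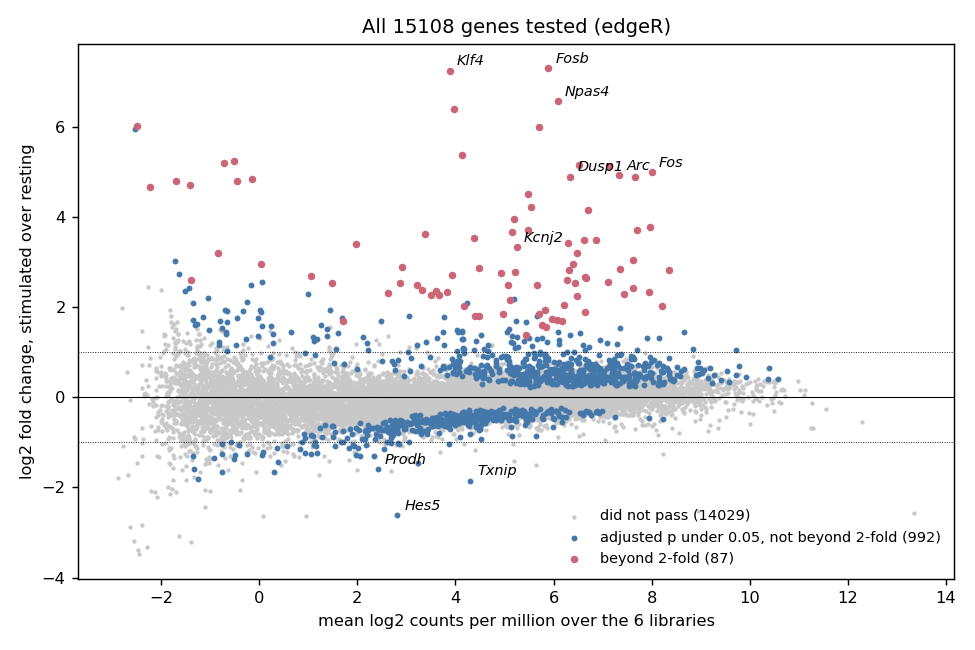
Log2 fold change of stimulated over resting neurons against mean log2 CPM, with 1 point for each of 15108 genes tested; red points are the 87 genes beyond 2-fold, blue points the other genes with an adjusted p under 0.05, and dotted lines mark a 2-fold change. The red points all lie above 0, led by Fosb, Klf4 and Npas4, while the lowest called genes with names shown are Hes5, Txnip and Prodh.

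Transcription factors of the activity response rose furthest. Of 23 listed, all 23 were tested, 21 rose (91.3%, against 4.65% of all genes) and 0 fell, with a median log2 fold change of 4.22. Of the 23, 18 rose beyond 2-fold, against 0.576% of all genes. In 22 of the 23 every stimulated library lay above every resting one, against 12% of all genes. Their summed level was 974, 662 and 709 CPM in the resting libraries and 10110, 9993 and 11670 CPM in the stimulated ones.

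Fosb (chromosome 7, 19302696 to 19310051), a Fos family subunit of AP-1, stood at 6.28, 2.14 and 6.55 CPM at rest and at 631, 823 and 902 CPM after stimulation. No resting library came near the stimulated ones, a log2 fold change of 7.29 ± 0.37 (SE, edgeR adjusted p = 7.55e-11), or 157-fold. Fos itself was at 33.3, 29.3 and 81.4 CPM at rest and at 1485, 1422 and 1698 CPM stimulated, a log2 fold change of 4.99. Resting replicate 3 had the highest Fos of its group, and it was still far below the stimulated libraries. Junb, a partner of Fos proteins in AP-1, rose from 46.4, 25.9 and 40.7 CPM to 1123, 1007 and 1222 CPM (log2 fold change 4.89). Jun, the classical partner, was already at 165, 117 and 165 CPM at rest and rose less, to 476, 693 and 646 CPM (2.02). Fosl2 rose by 2.85 on the log2 scale. Fosl1, a further Fos relative, passed the test (1.62, edgeR adjusted p = 0.0373) at levels of 0.152 to 0.755 CPM, and its call was lost without resting replicate 2 or 3 or stimulated replicate 1 or 2.

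The Egr zinc finger factors rose by different amounts. Egr2 went from 0.912, 2.66 and 1.71 CPM to 98.7, 199 and 156 CPM, a log2 fold change of 6.39 ± 0.70 (SE). Stimulated replicate 1 had the lowest Egr2 of its group, and no resting library came near it. Egr4 had a log2 fold change of 5.14, Egr1 of 3.77 and Egr3 of 3.05. Egr1 and Egr3 started from higher levels within their own range: Egr1 lay at 78.2, 93.9 and 38.7 CPM at rest and at 899, 919 and 1061 CPM stimulated.

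The Nr4a orphan nuclear receptors, whose transcripts appear early after depolarisation, all rose. Nr4a2 rose from 8.82, 4.602 and 6.34 CPM to 460, 343 and 455 CPM (log2 fold change 6.00 ± 0.42, SE). Nr4a1 rose from 28.8, 24.8 and 18.4 CPM to 846, 783 and 883 CPM (5.13). Nr4a3 rose from 189, 107 and 88.2 CPM to 977, 750 and 965 CPM (2.81). In each of the 3 the stimulated libraries were above all resting ones, with stimulated replicate 2 the lowest of its group.

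Npas4, a factor that neurons make in response to calcium entry, was at 6.03, 6.27 and 8.68 CPM at rest and at 566, 639 and 799 CPM after stimulation. Its log2 fold change was 6.57 ± 0.57 (SE, edgeR adjusted p = 9.95e-08). Klf4, a Krüppel-like factor, rose from 0.608, 0.595 and 2.51 CPM to 209, 180 and 225 CPM (7.24 ± 0.39, SE). Resting replicate 3 held the highest resting Klf4, and without it the log2 fold change was 8.40. Maff (5.38), a small Maf factor, and Atf3 (4.51), a stress-responsive bZIP factor, also rose. So did Ier2 (4.22), an immediate early gene, and Csrnp1 (3.54), each with no overlap of the groups.

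Crem, which can encode the CREB repressor ICER, rose by 0.92 on the log2 scale and Bhlhe40, a repressor with clock roles, by 0.80. Both calls were lost without resting replicate 2, without stimulated replicate 1 or 3, and with only the 6 libraries in the fit. Ier5 (0.57, adjusted p = 0.141) and Klf10 (0.18, adjusted p = 0.613) did not pass the edgeR test. Klf10 was at 48.3, 38.9 and 24.7 CPM at rest and 41.1, 46.5 and 38.9 CPM stimulated, so its groups overlapped.

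**Figure D2:**
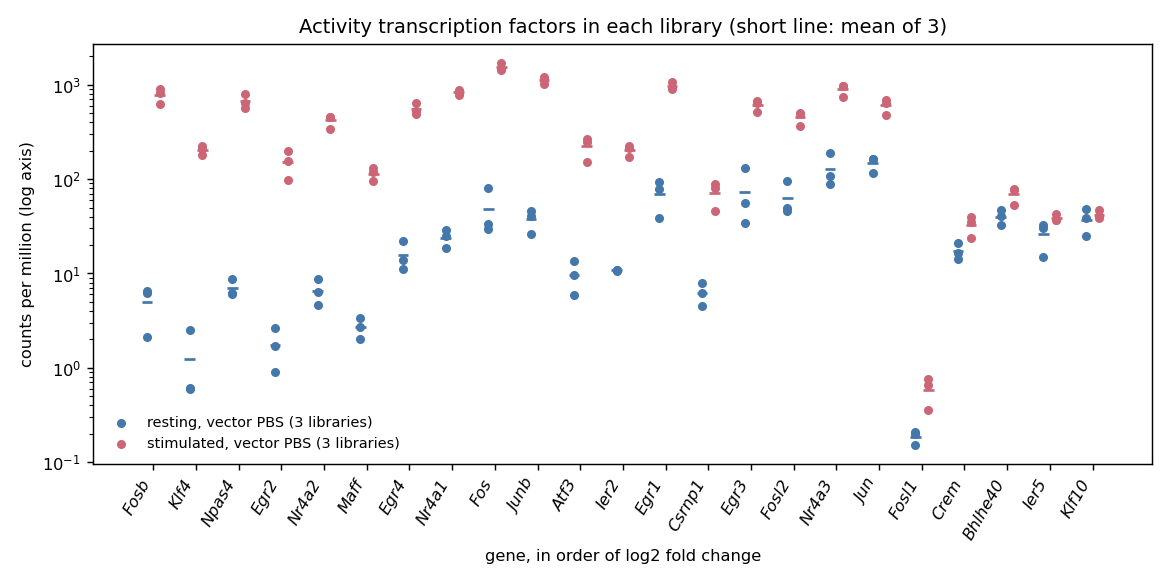
Level in CPM (log axis) of the 23 activity transcription factors in each of the 3 resting (blue) and 3 stimulated (red) libraries, with short lines at the means, in order of log2 fold change. The groups are separated in 22 genes and overlap in Klf10.

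Early genes with synaptic and signalling roles, a few of them also nuclear, had the next highest list median. Of 25 listed, 19 rose (76%, against 4.65% of all genes), 0 fell and 14 rose beyond 2-fold, with a median log2 fold change of 2.43. Arc, which drives removal of AMPA receptors from synapses, stood at 43.1, 28.5 and 19.9 CPM at rest and at 711, 957 and 1088 CPM stimulated. That was a log2 fold change of 4.92 ± 0.46 (SE, edgeR adjusted p = 3.10e-07). Ccn1, a secreted matrix protein, rose by 4.15 and Arl4d, a small GTPase, by 3.95 on the log2 scale. Gadd45b, linked to DNA demethylation at neuronal genes, went from 13.1, 10.8 and 13.1 CPM to 183, 126 and 175 CPM (3.71).

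Several further members of this list had tight groups, and they are named after their values were seen. Sik1, a kinase that restrains CREB coactivators, was at 9.68, 9.05 and 11.1 CPM at rest and at 130, 112 and 138 CPM stimulated (log2 fold change 3.67 ± 0.19, SE). Btg2, an antiproliferative early gene, rose by 3.70 and Errfi1, an inhibitor of EGF receptor signalling, by 3.48. Rgs2, which shortens G protein signals, rose from 59.1, 65.7 and 48.1 CPM to 300, 329 and 388 CPM (2.56), and Plk2, a kinase of synaptic downscaling, rose by 2.43. Homer1, whose short activity-dependent form cannot be told from the long form in gene counts, rose from 73.1, 54.4 and 45.2 CPM to 168, 135 and 163 CPM (1.44 ± 0.19, SE). The 6 listed members that did not pass were Gpr3, Plk3, Ccn2, Nedd9, Cdkn1a and Rheb. Their log2 fold changes ran from -0.51 in Ccn2 to 1.11 in Gpr3.

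Feedback on kinase and calcium signalling rose as well. Of 25 listed genes 13 rose (52%, against 4.65% of all genes), 0 fell and 5 rose beyond 2-fold, and the median was 0.42. Dusp1, a nuclear phosphatase that switches off MAP kinases, had the lowest p-value of all genes tested. It went from 16.01, 13.2 and 15.4 CPM to 471, 377 and 476 CPM, a log2 fold change of 4.89 ± 0.22 (SE, edgeR adjusted p = 1.74e-11). Rasd1, a Ras-like protein induced by dexamethasone, rose from 5.32, 2.58 and 1.80 CPM to 46.1, 21.2 and 48.8 CPM (3.62). Dusp6, which acts on ERK in the cytoplasm, rose by 2.83 and Dusp10, which acts on p38 and JNK, by 2.38 on the log2 scale.

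The family was not uniform. Dusp5 (2.26), Dusp4 (1.80), Dusp14 (0.66) and Dusp8 (0.65) also passed, as did Spry2 (1.21), Spry1 (1.15) and Spry4 (0.85), inhibitors of receptor tyrosine kinase signalling. Dusp2, Dusp3, Dusp7 and Dusp16 did not pass, with values from -0.39 to 0.20. Rcan1, a calcineurin inhibitor, stood at 46.9, 51.4 and 57.3 CPM at rest and had a log2 fold change of -0.04 (adjusted p = 0.884). These members outside the largest 4 are named after their values were seen.

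A list of secreted activity products and related enzymes was higher in part. Of 23 listed genes 22 were tested, 8 rose (36.4%, against 4.65% of all genes), 0 fell and 1 rose beyond 2-fold, with a median of 0.43. The member beyond 2-fold was Ptgs2, the inducible cyclooxygenase, a membrane enzyme inside the cell, and no secreted member was. Ptgs2 was at 45.2, 18.6 and 13.7 CPM at rest and at 285, 200 and 340 CPM stimulated (log2 fold change 3.42 ± 0.56, SE). Nptx2, a pentraxin that clusters AMPA receptors, rose by 2.17 and Inhba, the activin A subunit, by 2.08 on the log2 scale.

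Bdnf, the neurotrophin named after its value was seen, stood at 154, 90.6 and 58.9 CPM at rest and at 331, 220 and 327 CPM stimulated. Its groups did not overlap, and its log2 fold change was 1.54 ± 0.34 (SE, edgeR adjusted p = 0.00789). Resting replicate 1 was the highest resting library for Bdnf, and also for Nptx2, Ptgs2 and Inhba. Scg2 (1.07), Pcsk1 (1.38), Vgf (1.44) and Plat (0.50) passed too, with Vgf overlapping between groups because resting replicate 1 reached 546 CPM against 510 CPM in stimulated replicate 2. Without resting replicate 2 or stimulated replicate 1, 5 members of the list rose, and with only the 6 libraries in the fit 4 did.

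Of 18 neuropeptide genes tested, 2 rose (11.1%, against 4.65% of all genes) and 0 fell, and the median was 0.22. The 2 that passed were scarce: Trh lay at 0.0299 to 0.152 CPM at rest and at 0.503 to 0.605 CPM stimulated (log2 fold change 3.02), and Cartpt at 0.198 to 0.659 CPM and 1.30 to 1.54 CPM (1.91). Both calls were lost without resting replicate 2, resting replicate 3 or stimulated replicate 3, and that of Cartpt also without stimulated replicate 1 or 2. Neither passed with only the 6 libraries in the fit, and Trh did not pass in DESeq2. Crh (1.80, adjusted p = 0.13) and Pdyn (-0.90, adjusted p = 0.192) did not pass the edgeR test.

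Most receptor, channel and synapse genes did not pass the threshold. Their shares of rises, against 4.65% of all genes tested, were 9.09% in the AMPA and NMDA receptor list, 0% in the GABA-A list, 8.33% in the sodium and calcium channel list and 9.38% in the potassium channel list. In the presynaptic and postsynaptic lists they were 8.33% and 13.6%. Among 11 AMPA and NMDA receptor subunits 1 rose and 0 fell: Grin2b, the juvenile NMDA subunit, went from 303, 254 and 175 CPM to 455, 412 and 469 CPM (log2 fold change 0.87, edgeR adjusted p = 0.0228). Grin2a (0.80, adjusted p = 0.0812), Grin3b (0.60) and Grin1 (0.41) did not pass. Among 12 GABA-A receptor subunits 0 passed in edgeR (4 were higher at an unadjusted p under 0.05, and 0 passed in DESeq2), and values included Gabra2 (0.47), Gabrb1 (0.33) and Gabrg3 (0.32). The medians of these 2 lists were 0.32 and 0.22. Estimates were above 0 in 11 of 11 glutamate receptor and 11 of 12 GABA-A subunits, against 46.2% of all genes, and 5 glutamate receptor subunits were higher at an unadjusted p under 0.05. For the stimulated against resting effect, the share of all genes at that unadjusted threshold was not counted. Unadjusted counts in these and the later lists thus have no background.

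Potassium channels held the exception. Of 32 tested, 3 rose and 0 fell, and Kcnj2, an inward rectifier that sets the resting potential, rose beyond 2-fold. Kcnj2 stood at 11.6, 17.4 and 8.38 CPM at rest and at 84.1, 130 and 158 CPM stimulated, a log2 fold change of 3.32 ± 0.35 (SE, edgeR adjusted p = 1.47e-06). Its groups were well apart and its range over the 14 alternatives was 3.09 to 3.65. Kcnq3 (0.98), Kcnb2 (0.62) and Kcnma1 (0.57) did not pass. Among 24 sodium and calcium channel genes 2 rose and 0 fell, with Cacna1e, the R-type calcium channel, at 0.93. Cacna1c (0.70), Cacna1h (0.68) and Scn8a (0.66) did not pass. All 24 had estimates above 0, and 12 of them and 14 of the 32 potassium channel genes were higher at an unadjusted p under 0.05, a share not counted over all genes.

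At the synapse, 2 of 24 presynaptic genes rose and 0 fell. Syt4, an activity-regulated synaptotagmin, went from 151, 171 and 110 CPM to 273, 241 and 263 CPM (log2 fold change 0.85 ± 0.15, SE, edgeR adjusted p = 9.26e-04). Pclo, an active zone scaffold, rose by 1.04, and its partner Bsn (0.91) and the priming factor Unc13a (0.55) did not pass. Of 22 postsynaptic genes 3 rose and 0 fell: Lrrtm2, an adhesion molecule that binds neurexin (1.27), Shank1, a scaffold (0.95), and Nlgn2, the neuroligin of inhibitory synapses (0.61). Shank2 had 0.65 and did not pass. At an unadjusted p under 0.05, 6 presynaptic and 10 postsynaptic genes were higher.

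Counts of calls in these lists depended on single libraries, above all resting replicate 1. Summed presynaptic levels were 15160, 9427 and 8743 CPM in the resting and 14680, 13230 and 14600 CPM in the stimulated libraries, so resting replicate 1 lay above all 3 stimulated ones. Without it, 16 presynaptic, 13 postsynaptic, 14 sodium and calcium channel, 12 potassium channel and 5 glutamate receptor genes rose. With only the 6 libraries in the fit, 0 presynaptic genes and 1 postsynaptic gene rose. The calls of Grin2b, Cacna1e, Pclo and Shank1 were lost without any 1 of resting replicates 2 and 3 and stimulated replicates 1 and 3. That of Nlgn2 was lost without resting replicate 2 or 3 or stimulated replicate 2 or 3. Summed neuron markers had the same order at rest, with 6571 CPM in replicate 1 and 4617 and 4280 CPM in replicates 2 and 3, against 6366 to 7290 CPM stimulated. In such bulk samples fewer cells of a type and less RNA per cell cannot be told apart.

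Small differences also followed the length of the transcript. With the 14836 genes of known exon length split into 5 equal groups, the median log2 fold change was -0.21 in the shortest, then -0.12, -0.04 and 0.03, and 0.18 in the longest. Genes that rose numbered 72 in the shortest and 332 in the longest group, and genes that fell 153 and 10. Measured per library, the longest minus the shortest group was -0.07, -0.30 and -0.17 in the resting and 0.18, 0.16 and 0.21 in the stimulated libraries, so the groups did not overlap. The 87 genes beyond 2-fold ran the other way, with 28 in the shortest and 5 in the longest group. Median exon length was 9902 bases in the sodium and calcium channel list, 9700 in the glutamate receptor list and 8295 in the postsynaptic list, against 4421 over all tested genes and 3473 in the activity transcription factors. The part of length in the changes of the channel and synapse lists was not tested.

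**Figure D3:**
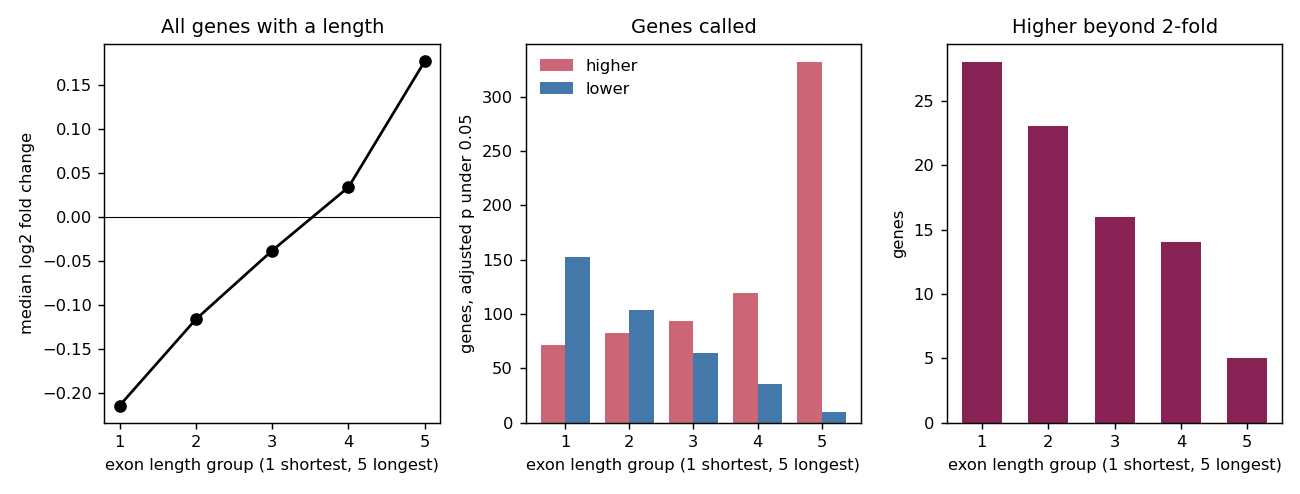
Genes in 5 equal groups of exon length, from shortest to longest: the median log2 fold change of stimulated over resting (left), genes with an adjusted p under 0.05 in each direction (middle) and genes higher beyond 2-fold (right). The median climbs from -0.21 to 0.18, and rises beyond 2-fold fall from 28 to 5.

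Few metabolic genes passed. Rises made up 8.70% of the glycolysis list and 10% of the sterol list, against 4.65% of all genes. The list medians were 0.145 and 0.202, against -0.03 over all genes. Of 23 glycolysis and glucose transport genes 2 rose and 0 fell: Slc2a3, the neuronal glucose transporter, from 235, 176 and 146 CPM to 333, 322 and 386 CPM (log2 fold change 0.90), and Slc16a1, a lactate transporter (0.74). Both calls were lost with only the 6 libraries in the fit, without resting replicate 2 and without stimulated replicate 1 or 3. That of Slc2a3 was also lost without resting replicate 3, and that of Slc16a1 without resting replicate 1 or stimulated replicate 2. Slc16a3 (0.79) and Hk2 (0.72) overlapped between groups and did not pass. Of 20 sterol genes 2 rose, Insig1 (0.76), which holds back sterol synthesis, and Hsd17b7 (0.61), a synthesis enzyme. Without any 1 of 5 libraries (all but resting replicate 1) 0 sterol genes rose.

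All 22 nuclear respiratory chain genes had log2 fold changes below 0, against 46.2% of all tested genes above 0, and 0 of them passed in edgeR (7 were lower at an unadjusted p under 0.05). The list median was -0.19 and the values nearest to a call were Cox7a2 (-0.38), Ndufb5 (-0.34), Ndufa1 (-0.34) and Ndufa4 (-0.32). DESeq2 also passed 0 of them, and at most 4 fell under any alternative. Their median exon length was 2593 bases, and the median of all genes in the 2 shortest length groups was -0.21 and -0.12.

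Most genes of stress pathways did not pass. Of 20 genes of the unfolded protein and integrated stress response 2 rose (10%, against 4.65% of all genes), 0 fell and the median was -0.09. Ppp1r15a, the phosphatase subunit that restores translation, rose from 21.5, 24.1 and 19.0 CPM to 95.7, 137 and 128 CPM (2.48 ± 0.19, SE). Atf4, the factor upstream of it in this pathway, rose by 0.44, a call lost with upper quartile scaling or total counts, and without resting replicate 2 or 3 or stimulated replicate 1 or 3. Ddit4 (0.43) and Trib3 (-0.33) did not pass.

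Among 13 heat shock genes Dnajb1 (0.77) rose and Hspe1 (-0.48) fell, and the list median of 0.08 became negative with upper quartile scaling. Each call was 7.69% of the list, against 4.65% of all genes rising and 2.50% falling. The call of Dnajb1 was lost without resting replicate 2 or 3 or stimulated replicate 2 or 3. Hspa1b (0.80) and Hspa1a (0.70), near-identical copies whose counts are uncertain, did not pass, nor did Hspb8 (-0.66). Of 20 NF-kB targets and chemokines 14 were tested, 2 rose (14.3%, against 4.65% of all genes) and 0 fell. Nfkbiz, an atypical I-kappa-B protein, went from 10.4, 8.89 and 12.4 CPM to 29.4, 25.4 and 31.5 CPM (1.44), and Cxcl1, a chemokine, from 0.557, 0.238 and 0.419 CPM to 3.40, 1.28 and 2.52 CPM (2.55). Traf1 (-1.39) and Ptx3 (0.88) did not pass. Tnf, Il1b and Il6 were too scarce to test, with at most 4 counts in either group.

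Of 12 p53 targets 0 passed in edgeR (1 higher and 5 lower at an unadjusted p under 0.05) and the median was -0.25. Zmat3 (0.43, adjusted p = 0.0501), Fas (-0.78), Phlda3 (-0.53) and Sesn1 (-0.42) had the largest differences, and DESeq2 passed 1 rise. Of 17 glucocorticoid and clock genes 3 rose (17.65%, against 4.65% of all genes) and 0 fell. Per1, a clock gene that CREB also drives, went from 49.5, 34.2 and 39.4 CPM to 201, 178 and 201 CPM (log2 fold change 2.24 ± 0.19, SE). Sgk1, a kinase, rose by 1.45 and Klf9 by 0.71, the last a call lost without any 1 of 5 libraries (all but resting replicate 1). Dbp had -0.67 and did not pass. Fkbp5 and Tsc22d3, textbook glucocorticoid targets named after their values were seen, had 0.36 and -0.11 and did not pass.

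Chromatin and acetyl-CoA genes bear on the theme of the wider study. Of 20 histone acetyltransferases and deacetylases 2 rose and 0 fell: Hdac4, a deacetylase that leaves the nucleus on calcium entry, from 52.4, 49.2 and 45.3 CPM to 74.4, 76.1 and 75.9 CPM (0.62, adjusted p = 0.00528, edgeR), and Crebbp, the CREB-binding acetyltransferase, from 36.8, 35.6 and 35.2 CPM to 55.9, 52.3 and 52.9 CPM (0.58). These 2 were 10% of the list, against 4.65% of all genes. The call of Crebbp was lost without stimulated replicate 1. Ep300 (0.28) and Hdac8 (-0.27) did not pass. Of 12 acetyl-CoA enzymes 0 passed in edgeR or DESeq2 (1 was higher at an unadjusted p under 0.05 in edgeR), with Acss1 at -0.54, Fasn at 0.46, Acaca at 0.32 and Acat1 at -0.21. The medians of these lists were 0.02 and 0.03 and turned negative with upper quartile scaling and with total counts. Of 16 perineuronal net and matrix genes 1 rose, Adamts1, a protease of the net, from 45.8, 35.0 and 79.0 CPM to 193, 194 and 211 CPM (1.90), and 0 fell. Has1 (1.66), Has2 (0.61) and Ncan (0.55) did not pass. The share of rises in the net and matrix list was 6.25%, against 4.65% of all genes.

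**Figure D4:**
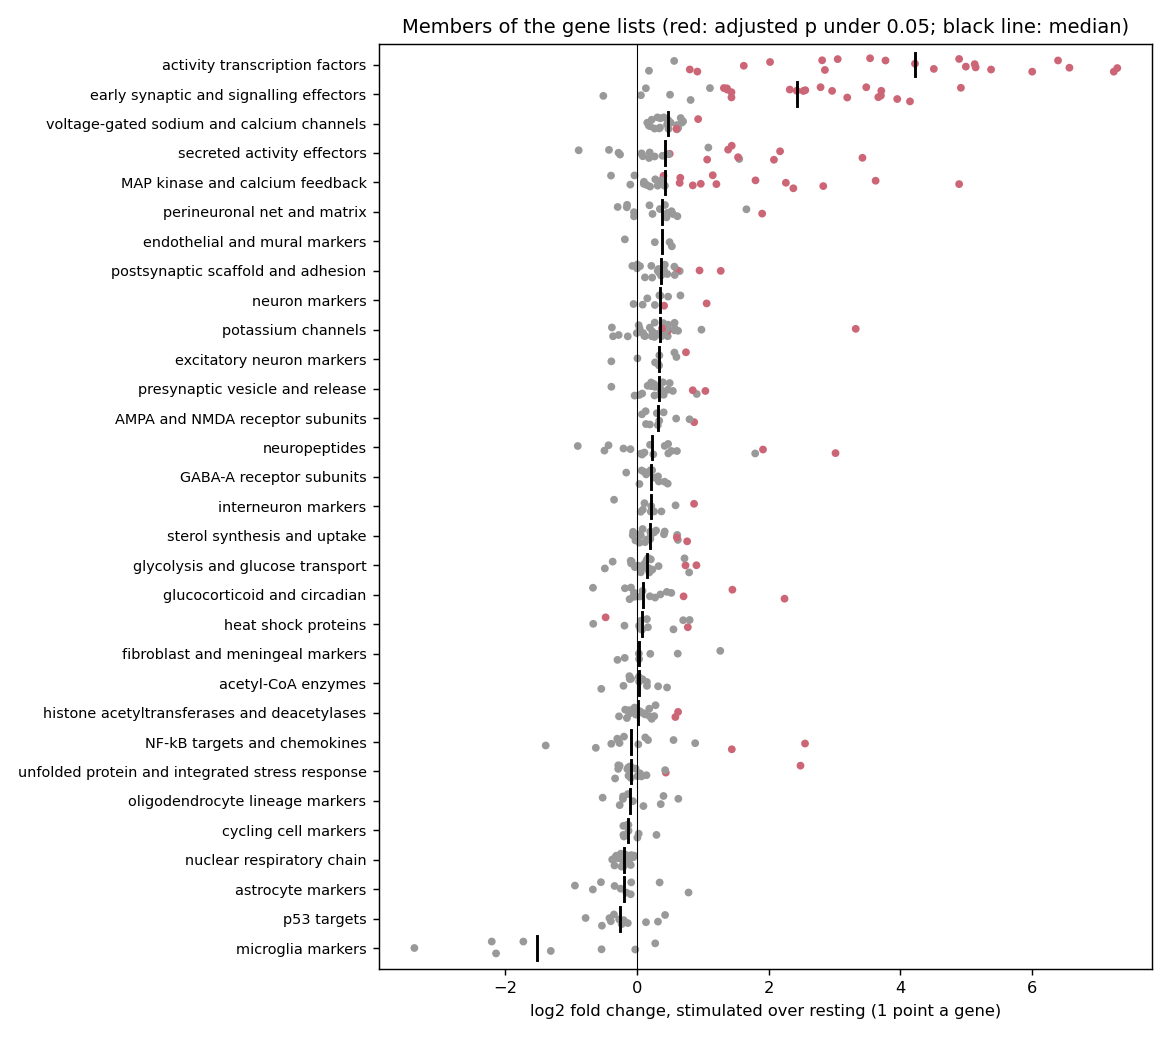
Log2 fold change of stimulated over resting neurons for the tested members of 31 gene lists, 1 point a gene, red where the adjusted p was under 0.05, with a black line at each list's median. The activity transcription factors (median 4.22) and early effectors (2.43) stand to the right of the other lists, which have medians from -1.52 to 0.47.

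Neuron and glial markers were both detected. Neuron markers were abundant, with Map2 at 1082 to 1262 CPM at rest, and of 10 neuron markers Nefl (1.06) and Map2 (0.41) rose. Nefm (0.66) and Rbfox3 (0.47) did not pass. Nefl went from 846, 487 and 451 CPM to 1337, 1039 and 1336 CPM. Of 9 excitatory markers Prox1 rose (0.74), and Neurod2 (0.60) and Slc17a6 (-0.39) did not pass. Of 10 interneuron markers Dlx2 rose (0.87), and Dlx5 (0.59), Dlx6 (0.37) and Pvalb (-0.35) did not pass. No neuron marker fell. Rises made up 20% of the neuron, 11.1% of the excitatory and 10% of the interneuron markers, against 4.65% of all genes. The call of Map2 was lost without any 1 of 5 libraries (all but resting replicate 1), that of Prox1 without resting replicate 2 or any 1 stimulated library, and that of Dlx2 without resting replicate 2.

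Astrocyte markers were present in every library, and 0 of 10 passed in edgeR (1 higher and 1 lower at an unadjusted p under 0.05) or DESeq2. Their summed level was 7577, 4360 and 19550 CPM at rest and 9323, 6060 and 9245 CPM stimulated. The list median of -0.21 became 0.39 without resting replicate 3, which holds the high value. Gja1 (-0.94), Sox9 (0.78), S100b (-0.67) and Gfap (-0.55) had the largest differences. Oligodendrocyte lineage markers summed to 1370 to 2264 CPM at rest and 1260 to 2645 CPM stimulated, with 0 of 10 passing in edgeR and 1 in DESeq2. The largest were Cspg4 (0.63), Mog (-0.52), Olig2 (0.40) and Pdgfra (0.36).

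Other cell types were scarce. Microglia markers summed to 4.07 to 8.05 CPM at rest and 4.52 to 5.46 CPM stimulated, and 8 of 10 were abundant enough to test. C1qc (-3.38), Trem2 (-2.21), C1qa (-2.14) and Cx3cr1 (-1.73) had the lowest estimates, and 0 passed in edgeR, 0 also at an unadjusted p under 0.05 and 0 in DESeq2, at levels under 1 CPM. C1qc and Cx3cr1 were at 0 in resting replicate 1 and stimulated replicate 1. Of 10 endothelial and mural markers 4 were tested and 0 passed in edgeR (1 unadjusted) or DESeq2, with Kdr at 0.53, Flt1 at 0.50, Rgs5 at 0.27 and Pdgfrb at -0.18, and Cldn5 had 0 counts in all 6 libraries. Fibroblast markers (Col1a1 1.27, Col3a1 0.62, Pdgfrl -0.30, Col1a2 0.20) and cycling cell markers (Pcna 0.30, Mcm2 -0.21, Aurkb -0.21, Birc5 -0.20) had 0 calls among 7 and 10 tested in edgeR (1 and 0 unadjusted) and 0 in DESeq2. Their summed levels overlapped between the groups.

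Falls were smaller than rises and less steady. Hes5 (chromosome 4, 154960923 to 154962371), a Notch target that keeps progenitors undifferentiated, was at 18.1, 37.0 and 7.99 CPM at rest and at 2.14, 6.29 and 1.45 CPM stimulated. Its log2 fold change was -2.62 ± 0.54 (SE, edgeR adjusted p = 0.00474), and resting replicate 3 was close above stimulated replicate 2. The call of Hes5 was lost with only the 6 libraries in the fit. Txnip, an inhibitor of thioredoxin and of glucose uptake, went from 18.1, 58.7 and 43.4 CPM to 9.78, 14.6 and 8.72 CPM (-1.85). Prodh (-1.60), which breaks down proline in mitochondria, and Ddit4l (-1.45), an inhibitor of mTOR, also fell. Resting replicate 3 held their highest values, 21.5 and 30.7 CPM against at most 5.12 and 9.76 CPM in the other 2. Without it Prodh and Ddit4l had -0.50 and -0.66 and lost their calls. Those calls were also lost without stimulated replicate 1 or 2, and that of Prodh without stimulated replicate 3. That of Txnip was lost without resting replicate 2 or 3 or stimulated replicate 1 or 3.

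Zinc finger genes recurred among the falls. Zfp786 (-1.30), Zfp273 (-1.13), Zfp85 (-1.12) and Zfp708 (-1.09) were among the 12 lowest named genes, and Zkscan4, which also encodes a zinc finger protein, was another. Zkscan4 stood at 6.69, 8.33 and 8.56 CPM at rest and at 3.31, 3.04 and 3.26 CPM stimulated, a log2 fold change of -1.30 ± 0.15 (SE, edgeR adjusted p = 7.66e-06). It kept its call in all 14 alternatives. Snhg20, a noncoding RNA (-1.29), Wdr89 (-1.26) and Nat8f1 (-1.16), from a family of similar copies whose counts are uncertain, complete the 12. All of the 12 but Zkscan4 lost their calls with only the 6 libraries in the fit. The call of Nat8f1 was also lost without resting replicate 3 or stimulated replicate 3.

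Genes whose symbol begins with Zfp and a digit were therefore counted, a list chosen after their values were seen. Of 368 tested, 65 fell (17.7%, against 2.50% of all genes) and 10 rose (2.72%, against 4.65%). The median log2 fold change was -0.21, against -0.03 over all genes. The 10 that rose include Zfp36l1 and Zfp36l2, which bind RNA. Median exon length of the list was 4634 bases, near the 4421 of all genes. Many encode similar repeats, so reads may be shared between copies. With only the 6 libraries in the fit 1 member fell. The number was 108 without resting replicate 1, 26 without resting replicate 2, 32 without stimulated replicate 1 and 26 without stimulated replicate 3.

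The response was then set against neurons that differed in tau or in Acss2. In vector neurons given tau the stimulated against resting effect was measured in 6 other libraries, and the difference of the effects passed in 0 of 15108 genes (0%; edgeR, 261 or 1.73% at an unadjusted p under 0.05; DESeq2, 0 and 293). In PBS neurons with the Acss2 virus (upACSS2) the difference also passed in 0 genes (0%; edgeR, 1024 or 6.78% unadjusted; DESeq2, 0 and 1180). The other effects come from the same pair of tables and so share the confounding of table with stimulation. A count of 0 in these tests does not show that the responses were alike.

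The activity transcription factors had a median log2 fold change of 4.22 in vector neurons in PBS, 4.35 in vector neurons with tau, 3.30 in upACSS2 neurons in PBS and 4.04 in upACSS2 neurons with tau. The order of these medians is not that of the differences taken gene by gene. Those had a median of 0.227 for PBS minus tau, a larger effect in PBS, and of 0.356 for vector minus upACSS2. In the 4 arms, in the order first given, Fosb had 7.29, 7.23, 7.32 and 7.08. Nr4a2 had 6.00, 4.98, 5.61 and 4.61, and its difference between PBS and tau was 1.02 (edgeR unadjusted p = 0.0576). For the difference by tau, 0 of the 23 had an edgeR unadjusted p under 0.05, against 1.73% of all genes. Against upACSS2 neurons, 3 of the 23 did, against 6.78% of all genes: Egr4 (vector minus upACSS2 1.13), Ier2 (0.92) and Atf3 (-1.22). None of the 3 passed adjustment in edgeR, each with an adjusted p of 0.707. Among the 25 early synaptic and signalling effectors, 8 had an unadjusted p under 0.05 for the difference by tau, against 1.73% of all genes, and 0 passed adjustment in edgeR. The effect was larger in PBS than with tau in 7 of the 8, such as Fbxo33 (2.96 and 2.09) and Homer1 (1.44 and 0.82), and smaller in Trib1 (1.37 and 2.12), examples chosen after their values were seen. In 18 of the 23 transcription factor genes all 12 stimulated libraries of the 4 arms lay above all 12 resting ones. The same count was not made over all genes, so it has no background here.

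**Figure D5:**
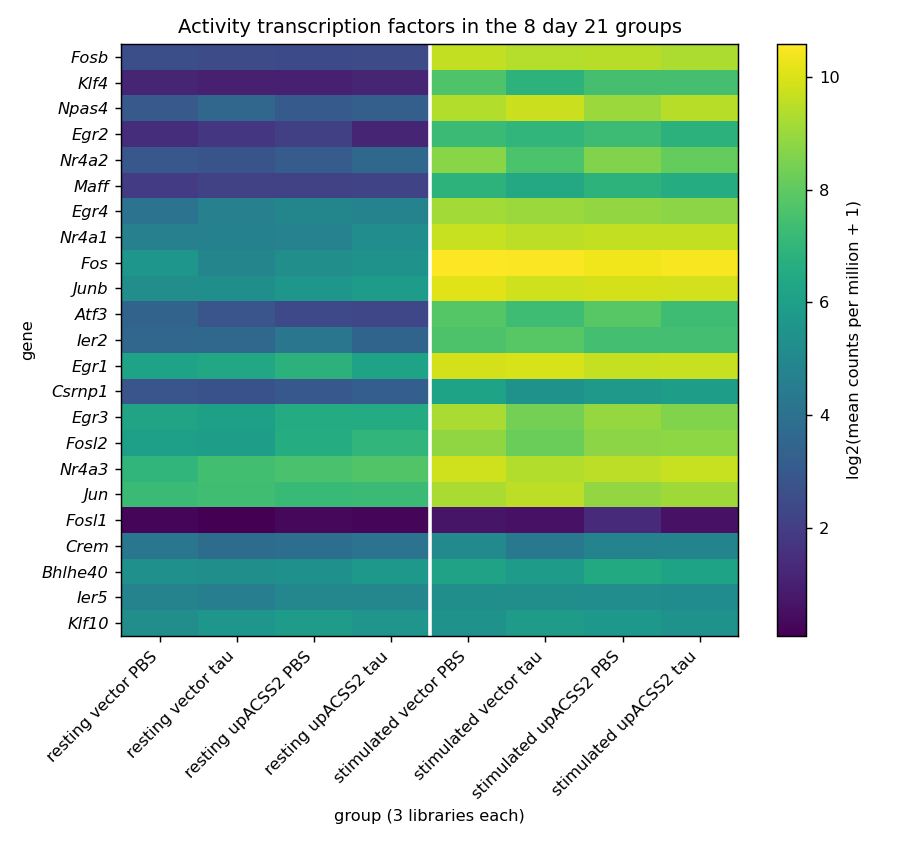
Mean level of the 23 activity transcription factors in the 8 day 21 groups of 3 libraries, as log2(mean CPM + 1). The 4 stimulated groups on the right are brighter than the 4 resting groups for genes from Fosb to Jun, and the last genes, Ier5 and Klf10, vary little across the 8 groups.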

How the data were processed

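The authors deposited counts as whole numbers for each symbol and library, not normalised, in separate tables for unstimulated and stimulated neurons. The submitters' processing notes name STAR, featureCounts, HTSeq, DESeq2 and mm10, with no role or order. The annotation and strand setting are not given in the sources used here, so reads of overlapping or near-identical genes cannot be told apart. The tables were joined by symbol. The test was that of edgeR 4.0.16, run under R 4.3.3 (quasi-likelihood F test, TMM scaling, filterByExpr by group, Benjamini-Hochberg over 15108 genes, threshold 0.05, two-sided; glmTreat for change beyond 2-fold). The fit held all 24 virus-treated day 21 libraries (8 groups of 3) with 1 estimate of the spread. No sample was dropped or imputed. Coordinates and exon lengths came from GENCODE for GRCm38, the mm10 assembly, and promoter and miRNA sequences from RefSeq on GRCm38.p6.

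Named genes were the called genes at either end of the log2 fold changes (12 each) whose groups did not overlap, leaving out predicted genes and those averaging under 1 on the log2 CPM scale, all activity transcription factors, up to 4 members of each other list with the largest absolute change, and Acss2; a few of the genes so chosen are not reported here. The members and lists were chosen with earlier results of these data known, so list counts are descriptions with no list test. Alternatives were DESeq2 1.42.0, RLE, upper quartile or no scaling factors, no filter, only the libraries compared, all 36 virus-treated neuron libraries, the replicate number as a block, and each library left out in turn. On simulated counts of this comparison (14953 genes) the test recovered 38% of 1.5-fold, 70% of 2-fold, 92% of 4-fold and 96% of 8-fold changes, and 4.52% of 155 calls were false. Those counts were drawn with the spread that the fit itself had estimated, and with no effect of table or transcript length. The share of false calls among the real ones can therefore not be read from them. Replicates of a group differed by more than sampling noise, so each was counted separately. The chi-square divided by genes was lowest between stimulated replicates 1 and 3, at 5.43. It was 39.1 and 31.5 for the pairs with stimulated replicate 2, and 105 to 298 between resting replicates. These values cannot show whether the libraries came from separate cultures, since technical preparations can also differ by more than sampling noise.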

Additional observations from a re-analysis of the deposited data

How the results depend on the processing

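The number of genes beyond 2-fold was 68 to 96 over the alternatives other than leaving a library out, and 78 to 91 with each of the 6 libraries left out. Of the 87 genes, 63 were beyond 2-fold in all 14 alternatives. Counts at the plain threshold moved more. With all 36 neuron libraries 2591 genes passed, 1319 higher and 1272 lower, and with only the libraries compared 187 passed, 182 higher and 5 lower (Exo5, Gm12258, Jrkl, Zfp429 and Zkscan4, which fell in every alternative). DESeq2 passed 1627 genes, and its falls numbered 670. Falls numbered 1017 with upper quartile scaling, 626 with total counts and 247 with no filter. Leaving out each of the 6 libraries gave 460 to 2836 genes, 351 to 1548 higher and 109 to 1288 lower; where this left a group with 2 libraries, the shared spread of the fit was used. Both differences of effects were 0 in every alternative, also with each of 12 libraries left out, with 141 to 1080 genes for tau and 383 to 2971 for upACSS2 at an unadjusted p under 0.05. With the replicate number as a block 1600 genes passed, 920 higher and 680 lower, and 92 were beyond 2-fold. Same-numbered libraries correlated by 0.30, 0.47 and 0.06 in their deviations from the group means. Each resting library correlated best with the stimulated library of its own number, though for resting replicate 3 only by 0.056 against 0.043. Stimulated replicate 3 correlated best with resting replicate 1 (0.21). Whether the numbers pair the samples cannot be decided from these values. The median of all genes shifted from -0.03 to -0.11 with upper quartile scaling. Of 73 named genes that passed, 38 kept the call in all 14 alternatives and 0 reversed. Reversals were in named genes that had not passed, and the cause was not tested. Over the settings that leave out 1 library, their ranges were Klf10 -0.051 to 0.397, Traf1 -1.811 to 0.113, Hdac8 -0.449 to 0, Gja1 -1.314 to 0.32, Gfap -0.967 to 0.437, Mog -0.817 to 0.011, Pdgfrl -0.547 to 0.138 and Birc5 -0.417 to 0.078, all reaching or crossing 0 without resting replicate 3. Pdgfrb (-0.518 to 0.489) crossed 0 without resting replicate 3 or stimulated replicate 2. Olig2 (-0.161 to 0.627) and Aurkb (-0.514 to 0.025) crossed 0 without stimulated replicate 2, Slc16a3 (-0.253 to 2.305) and Flt1 (-0.198 to 1.008) without stimulated replicate 3, and Col1a2 (-0.206 to 0.675) without either. Depth limits the scarce markers, since a gene under 1 CPM had few counts in each library.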

Other observations

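Of the 87 genes that rose beyond 2-fold, 42 belong to the lists described and 45 do not. These 45 were looked at after their values were seen, so the examples are descriptions. Spty2d1, which encodes a histone chaperone, was at 29.4, 29.4 and 29.3 CPM at rest and at 332, 282 and 380 CPM stimulated, a log2 fold change of 3.50 ± 0.19 (SE). Other abundant ones were Zdbf2 (2.64), Tiparp (2.67), a mono-ADP-ribosyltransferase, B3galt2 (2.60), a glycosyltransferase, Irs2 (2.29), an adaptor of insulin receptors, and Pcdh8 (2.32), a protocadherin that takes part in removing cadherin from synapses. Transcription and growth regulators among them were Cebpb (1.81), Btg1 (1.71), Tob1 (1.70) and Irf2bp2 (1.74). Ghsr, the ghrelin receptor, rose from 2.80 ± 0.593 to 20.9 ± 7.81 CPM (SD, n = 3 each), and Esm1 from 0.126 ± 0.0797 to 4.09 ± 0.272 CPM.

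A run of 4 of these genes lies on chromosome 11. Of 7 genes tested within 100 kb of Mir132, Hic1 (75164565 to 75169519, log2 fold change 2.69), Mir212 (75173388 to 75173478, 5.24), Mir132 (75173682 to 75173747, 5.19) and Ovca2 (75175942 to 75178835, 1.84) rose beyond 2-fold. Mir212 was at 0.152, 0.0397 and 0.0598 CPM at rest and at 3.49, 2.21 and 3.66 CPM stimulated. Ovca2 was at 16.2, 17.5 and 15.4 CPM at rest and at 56.4, 57.7 and 62.3 CPM stimulated. Their neighbours Dph1 (-0.09) and Rtn4rl1 (0.25) did not pass, and Smg6 rose by 0.25 (edgeR adjusted p = 0.0488). Mir212 and Mir132 are on the plus strand, Hic1 and Ovca2 on the minus strand. Without a stated strand setting, reads of neighbouring and overlapping transcripts cannot be assigned with certainty, and Ovca2 overlaps Dph1. The counts at the miRNA loci come from long RNA libraries and are not counts of mature miRNA. The mature 3p sequences, from RefSeq, are shown because both miRNAs share a seed (capitals, bases 2 to 8).
mmu-miR-132-3p: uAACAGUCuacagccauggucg
mmu-miR-212-3p: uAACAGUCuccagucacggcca
Mir132 is known as a target of CREB in neurons, and it rose in the other 3 arms as well, by 5.71 in vector neurons with tau, 5.04 in upACSS2 neurons in PBS and 4.18 in upACSS2 neurons with tau.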
